A study of Homo sapiens with 8 samples.

Results

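RNA levels of 10 cytoskeletal genes were followed in SK-N-MC, a cell line long used as a model of Ewing sarcoma. The genes code for the alpha tubulins TUBA1A, TUBA1B and TUBA1C, the beta tubulins TUBB, TUBB2A, TUBB2B, TUBB3 and TUBB4B, the gamma tubulin TUBG1 and stathmin, STMN1. They were chosen by gene symbol, and each matched 1 row among the 60332 genes of the table. Values are FPKM, a read density corrected for transcript length and library size. A gene was tested where 2 or more of the 8 libraries held 1 FPKM or more, and all 10 were among the 15372 genes that passed this filter. Since FPKM is per length, levels of different genes can be compared on this scale.

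Microtubules are hollow polymers of alpha- and beta-tubulin dimers, and they carry chromosomes in mitosis and cargo in interphase. Gamma tubulin sits in a ring complex from which new microtubules grow, while stathmin binds free dimers and favors disassembly. Cells also hold their own tubulin mRNA in check. When free dimers are in excess, TTC5 recognizes the first residues of the nascent alpha or beta chain on the ribosome and, through SCAPER and the CCR4-NOT deadenylase, the mRNA is degraded. Among the isotypes, TUBB, TUBA1B and TUBA1C are common in dividing cells, TUBB4B is widespread and enriched in cilia, and TUBB3, TUBB2A, TUBB2B and TUBA1A are best known from neurons.

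The 8 libraries form 4 groups of 2, called biological duplicates by the study. All cells carried lentiviral dCas9-KRAB, a dead Cas9 fused to a repressor domain. Controls had the empty vector, whereas eKD1 and eKD2 cells each expressed 1 of 2 independent guides placed beside the GGAA repeat enhancer of LOXHD1, which is bound by the fusion oncoprotein EWSR1::FLI1. The cells were puromycin-selected pools, not clones. Hypoxia was 16 h in 1% oxygen. Controls were sequenced in normoxia and in hypoxia, and both eKD lines in hypoxia, so whether a guide changes the response to oxygen could not be tested here.

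The first coding bases are printed because the autoregulation of tubulin mRNA is read from the start of the protein. The 3 alpha genes share the same first 30 coding bases, shown as TUBA1B. The first 4 codons are in capitals, and TUBB and TUBB4B share theirs. The sequences are read from the coding strand of GENCODE version 44 transcripts on GRCh37.
TUBA1B: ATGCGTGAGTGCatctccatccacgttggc
TUBB: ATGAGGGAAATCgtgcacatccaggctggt
TUBB2A: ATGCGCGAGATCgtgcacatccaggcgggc
TUBB2B: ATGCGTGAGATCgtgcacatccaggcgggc
TUBB3: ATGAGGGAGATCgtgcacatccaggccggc
TUBB4B: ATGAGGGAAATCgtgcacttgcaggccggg
TUBG1: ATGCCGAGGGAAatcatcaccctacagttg
STMN1: ATGGCTTCTTCTgatatccaggtgaaagaa

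Close sequence also limits how far the levels of single isotypes can be told apart. TUBB2A and TUBB2B are 98.2% identical over 1335 coding bases, and TUBA1A and TUBA1B are 97.2% identical over 1353. Of all 50-base stretches of the TUBB2A transcripts, 64.6% also occur in another gene, against 62.7% for TUBA1B, 54.9% for TUBB2B, 47.3% for TUBA1A, 30.0% for TUBG1, 26.7% for TUBA1C, 19.3% for TUBB, 10.4% for TUBB4B and 0% for STMN1. For TUBB3 the share is 92.8% because a readthrough gene, ENSG00000198211, contains it, and 9.23% when overlapping genes on its strand are left out. That readthrough gene was listed at 1.77 FPKM or less. TUBA1A and TUBA1C overlap by 345 bases on opposite strands, and the kit did not mark strand, so reads from the overlap cannot be told apart.

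Upstream sequence is shown for 3 members, the nearly identical pair TUBB2A and TUBB2B and TUBB4B, the member that later separated the guides. Each is the 250 bases before the RefSeq start on GRCh38.p14, written 5′ to 3′ on the strand of the gene. Capitals mark 3 motifs, searched on both strands. CCAAT is the core of NF-Y sites, ACGTG holds the core letters of hypoxia response elements, and so does its variant GCGTG. TUBB2A lies at chr6:3157545-3157794 on the minus strand, TUBB2B at chr6:3227654-3227903 on the minus strand and TUBB4B at chr9:137241037-137241286 on the plus strand.
TUBB2A: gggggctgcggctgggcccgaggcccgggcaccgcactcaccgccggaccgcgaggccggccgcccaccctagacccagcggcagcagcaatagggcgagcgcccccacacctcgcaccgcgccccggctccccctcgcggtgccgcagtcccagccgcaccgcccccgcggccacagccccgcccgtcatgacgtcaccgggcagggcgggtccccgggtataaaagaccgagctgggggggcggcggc
TUBB2B: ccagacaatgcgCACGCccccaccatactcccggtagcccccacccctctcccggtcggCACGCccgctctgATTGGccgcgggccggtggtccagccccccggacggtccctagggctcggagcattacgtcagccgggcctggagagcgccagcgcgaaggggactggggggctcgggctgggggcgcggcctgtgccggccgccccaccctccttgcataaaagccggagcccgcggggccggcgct
TUBB4B: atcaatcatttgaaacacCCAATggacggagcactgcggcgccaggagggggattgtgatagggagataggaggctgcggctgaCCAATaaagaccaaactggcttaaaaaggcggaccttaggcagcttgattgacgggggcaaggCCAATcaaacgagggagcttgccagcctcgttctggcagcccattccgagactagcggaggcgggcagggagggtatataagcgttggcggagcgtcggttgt

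The TUBB4B stretch holds 3 matches to CCAAT, TUBB2B holds 1 and TUBB2A holds 0 matches to any of the 3 motifs. Over windows of 300 bases that also take in the start of each RefSeq transcript, the 10 genes have 16 windows. CCAAT, on either strand, was found in 10 of these 16 windows and in 34.6% of all 35116 windows. ACGTG was found in 5 of 16 against 21.4% of all windows, and GCGTG in 8 of 16 against 36.5%. Some genes have several windows, and windows of the same gene can overlap. By gene, CCAAT was found in 8 of 10, and ACGTG and GCGTG each in 5 of 10. A match in these letters is a description and not a binding site.

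The depth of the libraries relative to replicate 1 of control hypoxia, read from the low values, ranged from 55.7% to 100%, and the totals from 865107 to 1041457 FPKM. The absolute depth is unknown, so no counting interval is given. LOXHD1, the targeted gene, was at 155.8 and 168.5 FPKM in control normoxia, 93.0 and 91.1 in control hypoxia, 17.3 and 15.0 in eKD1 and 11.7 and 11.8 in eKD2. It was lower in both libraries of each eKD group than in either hypoxia control. All 10 Ewing sarcoma markers examined were at a mean of at least 1 FPKM, among them FLI1, NKX2-2, CD99 and NR0B1. Fibroblast markers (COL1A1, COL1A2, DCN, LUM and PDGFRA) were also present, 4 of 5 at a mean of at least 1 FPKM. Their sum was 287.6 to 289.6 FPKM in control normoxia, 369.4 to 382.0 in control hypoxia, 354.5 to 369.7 in eKD1 and 328.6 to 341.8 in eKD2, and their part in the results was not tested. Of the leukocyte markers, CD3E and CD74 were listed at 0, whereas PTPRC was at 22.5 and 23.8 FPKM in control normoxia, 4.87 and 5.39 in control hypoxia, 10.0 and 9.59 in eKD1 and 14.3 and 13.5 in eKD2. PTPRC was thus lower in every hypoxia library, and its relation to the results was not tested. Epithelial markers were represented by EPCAM alone (1 of 4, KRT5 at 0) and summed to at most 9.68 FPKM, while 0 of 3 endothelial markers reached 1 FPKM.

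The first comparison asked how control cells respond to hypoxia. Of the 10 genes, 8 rose and 1, TUBA1C, fell (limma adjusted p under 0.05), while 32.2% of all tested genes were called in either direction, 16.2% higher and 16.0% lower. TUBB4B was not called. The groups of libraries did not overlap for any of the 10 genes, 9 higher and 1 lower, as was the case for 35.9% of all genes higher and 34.5% lower. The median change was 0.67 on the log2(FPKM + 1) scale, against 0.01 over all genes tested. In bulk RNA, fewer cells that express a gene and less of its RNA per cell cannot be told apart.

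**Figure D1:**
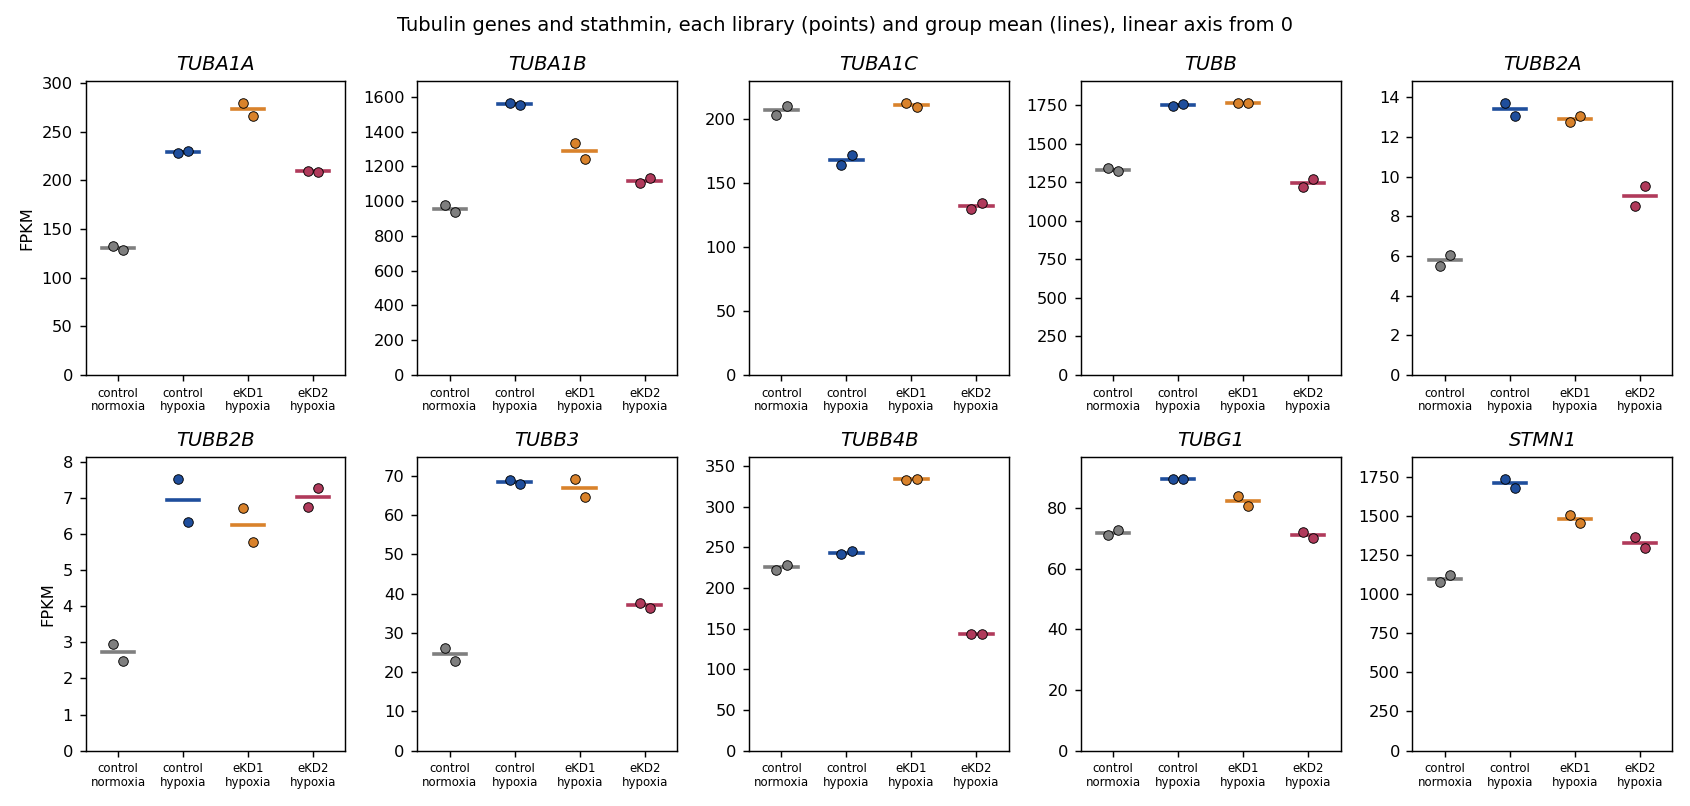
FPKM of each gene (vertical axes, linear from 0) in every library (points) with the mean of each group (lines), for control normoxia, control hypoxia, eKD1 hypoxia and eKD2 hypoxia. TUBB3 had 22.9 to 26.2 FPKM in normoxia and 67.8 to 68.8 in control hypoxia, and TUBB4B was lowest in eKD2 (143.0 and 144.1) and highest in eKD1 (333.4 and 334.9).

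Among the alpha tubulins, TUBA1B (ENSG00000123416.15_3, chr12:49521565-49525180, minus strand) was by far the most abundant. It was at 976.3 and 936.2 FPKM in normoxia and 1565.4 and 1552.3 in hypoxia. Both hypoxia libraries lay well above both normoxia libraries, a rise of 0.70 in log2 units (SE 0.0379, limma adjusted p = 0.00665). TUBA1A (ENSG00000167552.13_2, chr12:49578469-49582863, minus strand), the alpha isotype of post-mitotic neurons, had 132.2 and 128.5 FPKM in normoxia and 228.1 and 229.9 in hypoxia. It rose by 0.81 (SE 0.0456, limma adjusted p = 0.0068) with no overlap. TUBA1C (ENSG00000167553.15_3, chr12:49582519-49668383, plus strand), its head-to-head neighbor, went the other way, from 203.0 and 210.4 FPKM to 164.0 and 171.7. This fall (-0.30, SE 0.0518, limma adjusted p = 0.0254) was lost without the filter on low values (adjusted p = 0.0529), and over the alternatives that kept all libraries its adjusted p ranged from 0.00638 to 0.0805.

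Of the 5 beta tubulins, 4 rose in hypoxia. TUBB (ENSG00000196230.12_2, chr6:30685212-30693315, plus strand), the main beta isotype of these cells, was at 1345.8 and 1321.1 FPKM in normoxia and 1748.2 and 1756.2 in hypoxia. It rose by 0.39 (SE 0.0314, limma adjusted p = 0.00837), a mean of 131% of the normoxia level. TUBB3 (ENSG00000258947.6_3, chr16:89987800-90005169, plus strand), the class III isotype used as a marker of neurons, had 26.2 and 22.9 FPKM in normoxia and 68.8 and 67.8 in hypoxia. It showed the largest change of the 10 genes, 1.44 (SE 0.0925, limma adjusted p = 0.00762), or 278% of the normoxia mean.

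TUBB2A (ENSG00000137267.5_2, chr6:3153731-3157778, minus strand) and TUBB2B (ENSG00000137285.9_2, chr6:3223558-3231964, minus strand), which lie side by side, were the least abundant members. TUBB2A had 5.504 and 6.061 FPKM in normoxia and 13.72 and 13.05 in hypoxia, and TUBB2B had 2.949 and 2.495 in normoxia and 7.545 and 6.347 in hypoxia. Each of the 2 genes was higher in both hypoxia libraries. Both rose by 1.09, with SE 0.120 and limma adjusted p = 0.0116 for TUBB2A and SE 0.166 and limma adjusted p = 0.0199 for TUBB2B (0.0643 without the filter on low values). Since reads of this pair are hard to assign, their sum is also given. It was 8.50 ± 0.0726 FPKM (SD, n = 2) in normoxia and 20.3 ± 1.32 FPKM (SD, n = 2) in hypoxia. TUBB4B (ENSG00000188229.5_2, chr9:140135739-140138159, plus strand) stood out as the beta gene that was not called. Its levels of 221.9 and 229.0 FPKM in normoxia and 242.0 and 245.4 in hypoxia did not overlap, but the change of 0.11 (SE 0.0440, limma adjusted p = 0.132) missed the threshold, and with equal FPKM totals it was -0.13.

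TUBG1 (ENSG00000131462.7_2, chr17:40761659-40767256, plus strand), which nucleates microtubules, was at 71.0 and 72.9 FPKM in normoxia and 89.8 and 89.7 in hypoxia. The rise of 0.32 (SE 0.0538, limma adjusted p = 0.0247) was lost when the FPKM totals of all libraries were set equal (0.08, adjusted p = 0.336). STMN1 (ENSG00000117632.22_3, chr1:26210672-26233482, minus strand) was as abundant as the main tubulins, with 1075 and 1120 FPKM in normoxia and 1738 and 1677 in hypoxia. It rose by 0.64 (SE 0.0414, limma adjusted p = 0.00775) with no overlap. Leaving out any 1 of the 4 libraries left 0 of the 10 genes called, and 0 of all genes tested.

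**Figure D2:**
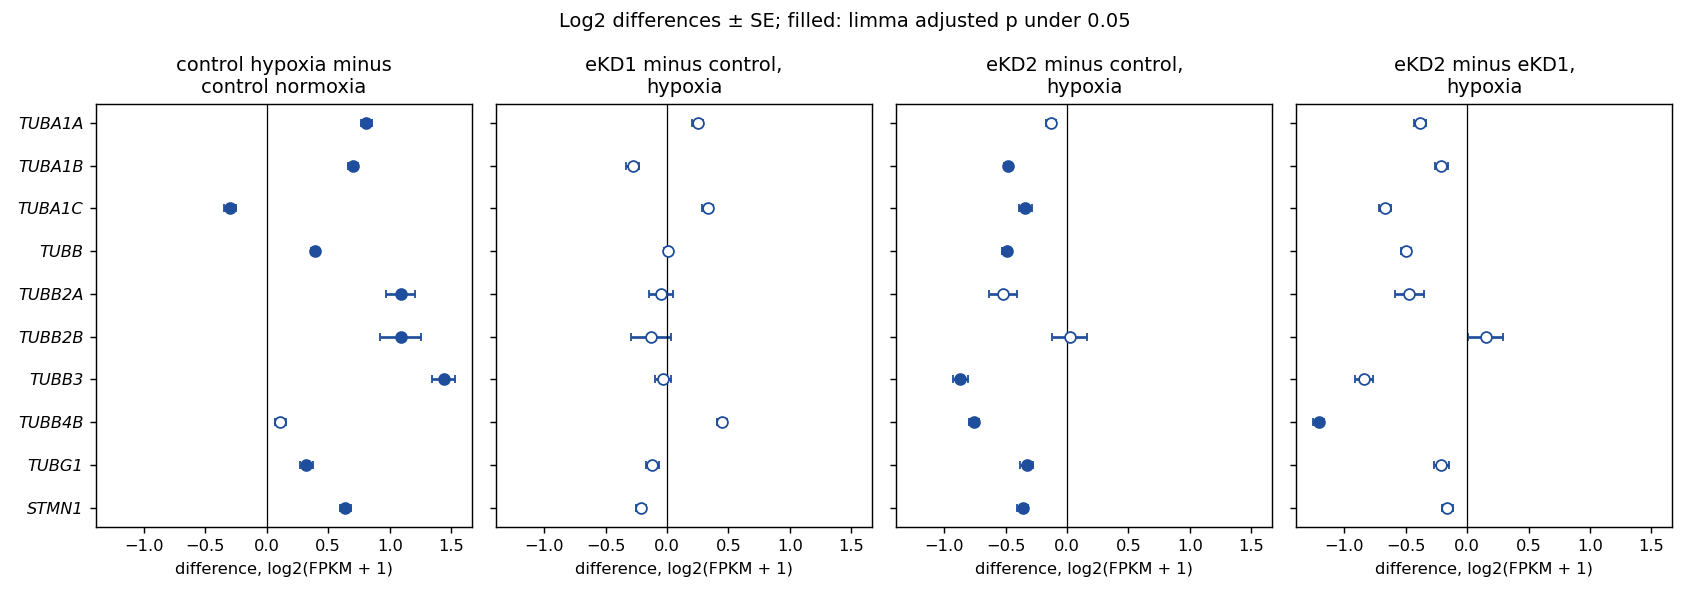
Difference on the log2(FPKM + 1) scale for each gene (rows) with its SE (bars) in the 4 comparisons (panels). Filled points passed an adjusted p of 0.05, 9 in hypoxia, 0 in eKD1, 7 in eKD2 and 1 between the guides, and with equal totals the TUBB4B point of the first panel moves to the other side of 0.

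With the first guide, eKD1 was compared with control cells, both in hypoxia. None of the 10 genes was called by limma, while 0.0651% of all genes (10 genes) were. At an unadjusted p under 0.05 there were 5 of 10, against 21.7% of all genes. The libraries did not overlap for 7 genes, 4 higher and 3 lower, as for 27.6% and 26.0% of all genes. In a fit that shared the spread of all 8 libraries, 4 genes were called, namely TUBA1A, TUBA1C and TUBB4B higher and TUBA1B lower.

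The largest difference was in TUBB4B, with 333.4 and 334.9 FPKM in eKD1 (0.45, SE 0.0392, limma adjusted p = 0.102). Both libraries were above both hypoxia controls, at a mean of 137% of the control. TUBA1C had 212.6 and 209.3 FPKM (0.33, adjusted p = 0.115) and TUBA1A 279.8 and 266.4 FPKM (0.25, adjusted p = 0.125), all above the controls. TUBA1B, at 1336.8 and 1239.5 FPKM (-0.28, adjusted p = 0.125), and STMN1, at 1503 and 1454 FPKM (-0.21, adjusted p = 0.130), lay below the controls in both libraries, as did TUBG1, at 84.1 and 80.8 FPKM (-0.12, adjusted p = 0.297).

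The other beta genes were close to the control level. TUBB was at 1766.6 and 1763.6 FPKM (0.01, limma adjusted p = 0.879), with both libraries just above the controls. TUBB3, at 69.3 and 64.5 FPKM (-0.03, adjusted p = 0.823), TUBB2A, at 12.7 and 13.1 FPKM (-0.05, adjusted p = 0.812), and TUBB2B, at 6.72 and 5.79 FPKM (-0.13, adjusted p = 0.675), overlapped with the controls.

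With the second guide, eKD2 against the same hypoxia controls, 7 of the 10 genes fell and 0 rose. Of all genes tested, 9.61% were called, 5.8% higher and 3.81% lower. The libraries did not overlap, all lower, for 9 of 10 genes, as for 26.4% of all genes, and the median change was -0.42 against 0.05 over all genes. Because the controls are shared, the hypoxia comparison and both eKD comparisons are not independent. The fit without a variance trend called 0 of the 10 genes, and 28 of all genes tested. Leaving out any 1 library leaves 1 library in a group, and the 7 falls kept their direction there. Without the filter on low values the calls of TUBA1C, TUBB and STMN1 were lost.

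The beta genes TUBB3 and TUBB4B had the largest falls. TUBB3 was at 37.6 and 36.3 FPKM, 54.1% of the hypoxia control (-0.87, SE 0.0596, limma adjusted p = 0.0273), which remained above both normoxia libraries. TUBB4B was at 144.1 and 143.0 FPKM, 58.9% of the control (-0.76, SE 0.0406, limma adjusted p = 0.0268). Unlike TUBB3, it was also below both normoxia libraries. TUBB, at 1222.8 and 1273.7 FPKM (-0.49, SE 0.0359, limma adjusted p = 0.0273), likewise lay under normoxia.

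TUBB2A had 8.53 and 9.52 FPKM, below both hypoxia controls, without passing the threshold (-0.52, SE 0.113, limma adjusted p = 0.0705). For TUBB2B, at 6.76 and 7.28 FPKM, the libraries overlapped with the controls (0.02, SE 0.141, limma adjusted p = 0.951). The difference between these neighbors was not tested, and their sum was 16.0 ± 1.07 FPKM (SD, n = 2).

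Of the alpha genes, TUBA1B was at 1102.0 and 1130.4 FPKM, 71.6% of the hypoxia control (-0.48, SE 0.0323, limma adjusted p = 0.0273). TUBA1C was at 129.4 and 134.7 FPKM (-0.34, SE 0.0526, limma adjusted p = 0.0435), so that the gene that fell in hypoxia was lower again in eKD2. TUBA1A, at 210.1 and 208.6 FPKM, was below both controls but not called (-0.13, adjusted p = 0.118). TUBG1, at 72.0 and 70.2 FPKM (-0.33, SE 0.0509, limma adjusted p = 0.0436), came to lie at the normoxia level in FPKM as listed, with overlapping libraries. No gene was tested between eKD2 and normoxia. STMN1, at 1363 and 1292 FPKM (-0.36, SE 0.0443, limma adjusted p = 0.0345), stayed between hypoxia and normoxia. With equal FPKM totals the falls of TUBA1C (adjusted p = 0.0775) and TUBG1 (adjusted p = 0.0736) were lost.

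Set against each other, the guides differed in TUBB4B. The mean was 334 ± 1.06 FPKM in eKD1 and 144 ± 0.748 in eKD2 (SD, n = 2 each), a difference of -1.21 in log2 units (SE 0.0423, limma adjusted p = 0.0205, or 0.0846 without a variance trend). With any 1 library left out, which leaves 1 library in a group, the difference ranged from -1.22 to -1.21. TUBB4B was the 1 member called, and 0.403% of all genes were called, 0.117% lower. At an unadjusted p under 0.05 there were 9 of 10 members against 23.6% of all genes. Libraries of eKD2 were below those of eKD1 without overlap for 9 genes, as for 23.3% of all genes, and above for TUBB2B alone, as for 31.9% of all genes. TUBA1C (-0.67, adjusted p = 0.0529), TUBB (-0.50, adjusted p = 0.0597) and TUBB3 (-0.84, adjusted p = 0.0637) missed the threshold, and the other members had adjusted p-values from 0.080 to 0.580.

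In the order of group levels, TUBA1B and STMN1 had the same sequence, control hypoxia, eKD1, eKD2 and normoxia, with no overlap between neighbors. TUBA1A had eKD1 first, then control hypoxia, eKD2 and normoxia, again without overlap. TUBB and TUBB4B shared the order eKD1, control hypoxia, normoxia and eKD2. TUBB2A and TUBB3 had control hypoxia and eKD1 overlapping at the top, and for TUBB2B control hypoxia overlapped with both eKD groups, with eKD2 above eKD1 and all of them above normoxia. TUBA1C was highest in eKD1 and normoxia, which overlapped, and lowest in eKD2.

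Added up, the alpha genes held 1293 ± 25.8 FPKM in normoxia, 1956 ± 2.58 in control hypoxia, 1772 ± 80.7 in eKD1 and 1458 ± 22.7 in eKD2 (SD, n = 2 each). The sum of the beta genes was 1592 ± 14.7, 2085 ± 6.01, 2185 ± 4.90 and 1445 ± 35.4 FPKM in the same order. Thus, in FPKM as listed, the alpha sum in eKD2 lay above normoxia and the beta sum below it. The library totals were 865100 and 877600 FPKM in normoxia and 953100 and 959800 in eKD2. The sums were not rescaled to equal totals, so their place relative to normoxia depends on the scaling. The ratio of alpha to beta was 0.812 ± 0.00871 in normoxia, 0.938 ± 0.00394 in control hypoxia, 0.811 ± 0.0351 in eKD1 and 1.01 ± 0.00904 in eKD2. These sums and ratios cover only the 3 alpha and 5 beta members, are descriptive and were not tested. The 14 further tubulin genes described below, of several classes, are left out. Together they held 398 FPKM in normoxia, 582 in control hypoxia, 614 in eKD1 and 350 in eKD2.

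**Figure D3:**
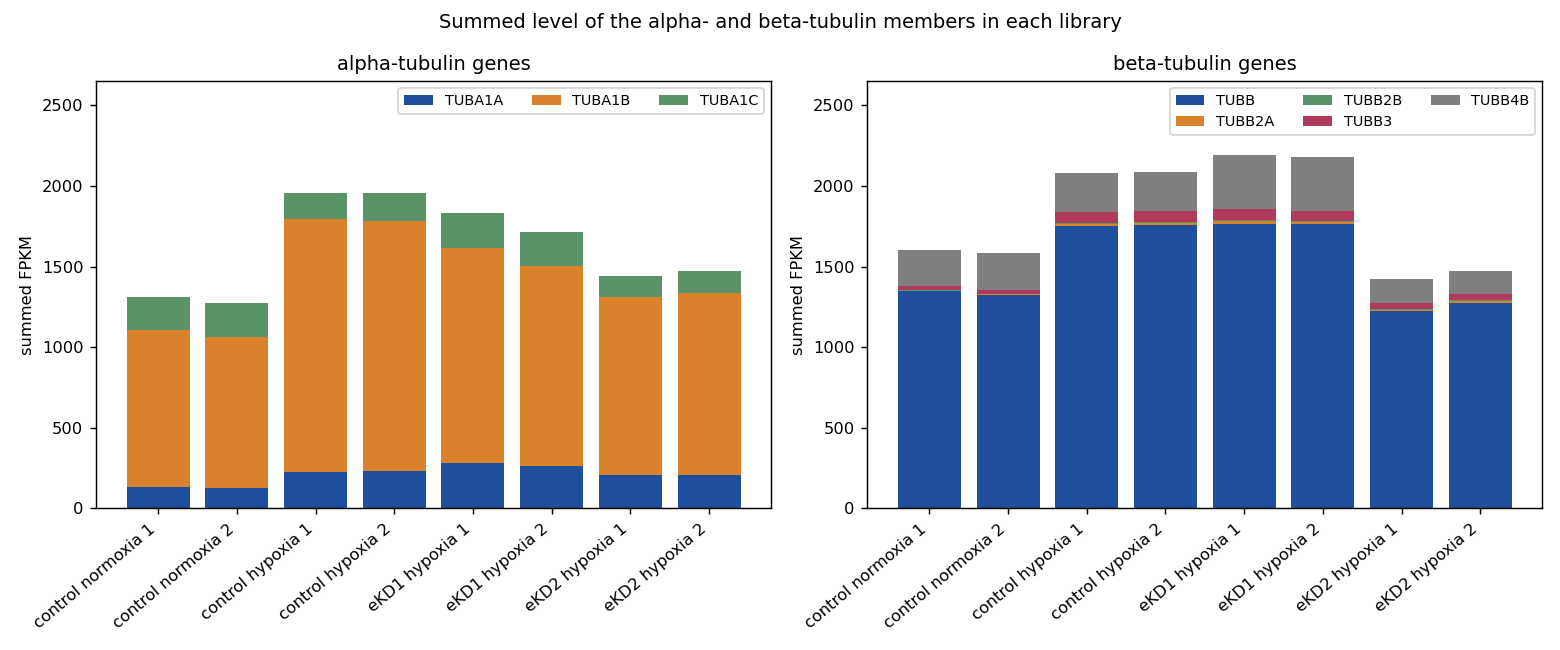
Stacked FPKM (vertical axes from 0) of the 3 alpha genes (left) and 5 beta genes (right) in each of the 8 libraries. TUBA1B and TUBB make up most of each stack, and the beta stack is lowest in the eKD2 libraries, at 1420 and 1470 FPKM.

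The share of single isotypes in these sums of members is given as a description, and not as a share of all alpha or beta tubulin RNA. TUBA1C was 16.0% of the alpha sum in normoxia and 8.58% in control hypoxia, 11.9% in eKD1 and 9.06% in eKD2. TUBA1B held 72.7% to 79.7% of the alpha sum in every group, and TUBB held 80.8% to 86.4% of the beta sum. TUBB3 was 1.54% of beta in normoxia against 3.28% in control hypoxia, while TUBB4B went from 14.2% to 11.7%, with 15.3% in eKD1 and 9.94% in eKD2. STMN1 RNA amounted to 0.381 of the alpha and beta sum in normoxia, 0.423 in control hypoxia, 0.374 in eKD1 and 0.458 in eKD2.

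Genes of like pattern were sought over the 4 group means of log2(FPKM + 1), each less its own mean, among 8703 tested genes with a mean of at least 10 FPKM. The nearest to STMN1 were RPLP1 (root-mean-square distance 0.0078), BLOC1S1 (0.00881) and OAZ1 (0.0106). For TUBA1B they were RPS15 (0.0129), XYLT2 (0.0135) and ZNF74 (0.0179), and for TUBB3 they were MXD4 (0.0572), FAM20C (0.0957) and OCEL1 (0.0964). Within the family, TUBA1B and STMN1 were closest to each other (0.0421). These distances rest on 4 points and carry no test.

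Among 14 further tubulin genes, 6 were tested, and 8 were below the filter. In hypoxia 1 rose, TUBA4A, an alpha tubulin, from 68.4 and 71.0 FPKM to 175.5 and 200.2 (1.41, SE 0.0852, limma adjusted p = 0.00709). In eKD2 3 fell and 1 rose, against 2 and 0 without the filter. The shares called over all tested genes were 32.2% in hypoxia and 9.61% in eKD2. TUBA4A was at 90.8 and 87.4 FPKM (-1.07, limma adjusted p = 0.0273), TUBB6 at 141.7 and 144.3 against 275.9 and 250.1 in the control (-0.87, adjusted p = 0.0273), and TUBB4A, a brain isotype, at 34.5 and 37.0 against 66.3 and 62.6 (-0.83, adjusted p = 0.0284). The one that rose was TUBE1, epsilon tubulin of the centriole, named after its values were seen, at 52.7 and 43.4 against 27.5 and 27.5 FPKM. Between the guides TUBA4A (-1.09, adjusted p = 0.0461) and TUBB6 (-1.07, adjusted p = 0.0261) were lower in eKD2, as TUBB4B was. Over all tested genes 0.403% were called between the guides, 0.117% lower. Without the filter 1 gene of this list was called between the guides, and 0 with a replicate block or without a variance trend. The stathmin relative STMN3 rose in hypoxia (0.55, adjusted p = 0.0184) and fell in eKD2 (-0.52, adjusted p = 0.0465), and both calls were lost with equal totals and without the filter on low values. STMN2 was listed at 0 and STMN4 at 0.316 FPKM or less.

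Newly made tubulin is folded by the chaperonin with prefoldin and a set of cofactors. Of 22 tested genes of this machinery, 3 rose and 5 fell in hypoxia and the median was -0.20. Over all tested genes 32.2% were called in hypoxia, 16.2% higher and 16.0% lower, and 9.61% in eKD2. TBCA, a beta-tubulin cofactor, rose by 0.77 (limma adjusted p = 0.0151), while the chaperonin subunits CCT5 (-0.65, adjusted p = 0.0068) and CCT6A (-0.67, adjusted p = 0.0112) fell. With equal FPKM totals 14 of the 22 were lower and 2 higher. In eKD2 CCT5 rose by 0.35 (limma adjusted p = 0.0496) and PFDN5, of prefoldin, had a change of -0.54 (limma adjusted p = 0.0273). The CCT5 call was lost with a pseudocount of 0.1, without the filter or with median-of-ratios scaling. Both calls were lost with a replicate block or without a variance trend.

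Of the 5 autoregulation genes, TTC5, SCAPER, CNOT1, CNOT7 and CNOT11, 2 fell in hypoxia, CNOT7 (-0.66, limma adjusted p = 0.00887) and CNOT11 (-0.55, adjusted p = 0.0388), and 0 were called in eKD2. Beside these, 32.2% of all tested genes were called in hypoxia and 9.61% in eKD2. TTC5 itself was at 10.1 and 14.3 FPKM in normoxia and 10.9 and 11.1 in control hypoxia, which overlapped.

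Of 9 genes of the gamma-tubulin ring complex, MZT2A (0.94, limma adjusted p = 0.00838) and MZT2B (0.82, adjusted p = 0.00801) rose in hypoxia and MZT1 fell (-0.75, adjusted p = 0.0151). In eKD2 MZT2A fell (-0.39, adjusted p = 0.0310). Of 16 tested genes of microtubule-associated and plus-end proteins, 1 rose and 3 fell in hypoxia, while 0 rose and 6 fell with equal totals or in the shared fit, and 0 rose and 2 fell without the filter. In eKD2 MAP4 rose (0.66, adjusted p = 0.0367, a call lost without the filter) and MAP1A fell (-0.89, adjusted p = 0.0273), and MAP1A was also lower in eKD2 than in eKD1 (-1.39, adjusted p = 0.0394). Beside both lists, 32.2% of all tested genes were called in hypoxia and 9.61% in eKD2.

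Severing and depolymerising factors gave 1 higher and 3 lower of 9 in hypoxia, the falls being KIF2A (-1.12, limma adjusted p = 0.0210), KIF18A (-0.90, adjusted p = 0.0140) and SPAST (-0.89, adjusted p = 0.0106). FIGNL1 fell in eKD2 (-0.59, adjusted p = 0.0343). Of 14 tubulin-modifying enzymes, 6 rose and 1 fell in hypoxia. They included the glutamylase subunit TTLL1 (1.32, adjusted p = 0.0149) and the detyrosination pair VASH1 (0.61, adjusted p = 0.0372) and SVBP (0.73, adjusted p = 0.0231). With equal totals 2 rose and 3 fell, and without the filter on low values 0 of the 14 were called. Beside both lists, 32.2% of all tested genes were called in hypoxia and 9.61% in eKD2.

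Tubulin also builds the mitotic spindle, so genes of cell division are given beside it. Of 16 genes of G2 and M phase, 14 fell and 0 rose in hypoxia, with a median of -0.67, led by CCNB1 (-1.47, limma adjusted p = 0.00641), PLK1 (-1.31, adjusted p = 0.00809) and CDC20 (-1.25, adjusted p = 0.00653). Their summed level was 1761 to 1784 FPKM in normoxia, 983 to 1000 in control hypoxia, 1122 to 1171 in eKD1 and 1239 to 1267 in eKD2. In eKD2 4 rose and 0 fell, among them PLK1 (0.75, adjusted p = 0.0331) and CDC20 (0.69, adjusted p = 0.0273). Over all tested genes 16.0% were called lower in hypoxia and 5.8% higher in eKD2. The part of cell division in the tubulin values was not tested. Without the filter on low values 9 of the 16 fell in hypoxia. In eKD1, where 0.0651% of all genes were called, none of the other lists had a called gene. The shared fit, with 761 calls over all genes, called 4 G2 and M, 2 microtubule-associated, 1 folding and 1 autoregulation gene in eKD1. Without the filter 1 further tubulin gene was called in eKD1, and 206 of all genes. Without a variance trend, or with a replicate block, no list had a called gene in eKD2 or between the guides.

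**Figure D4:**
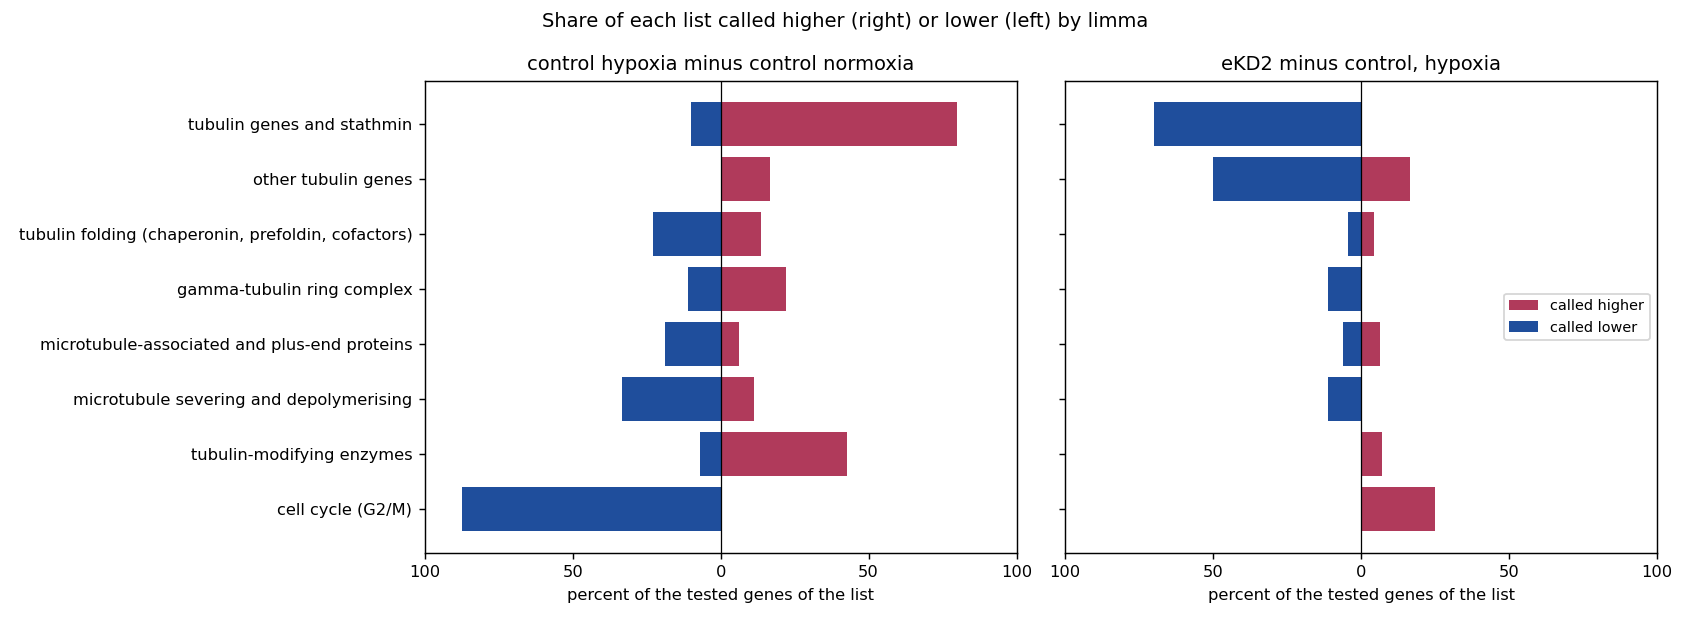
Percent of the tested genes of each list (horizontal axes) called higher (right of 0) or lower (left of 0) in hypoxia (left panel) and in eKD2 (right panel). The 10 genes described here have 8 higher and 1 lower in hypoxia and 7 lower in eKD2, and the G2 and M genes have 14 of 16 lower in hypoxia and 4 higher in eKD2. Over all tested genes 16.2% were higher and 16.0% lower in hypoxia, and 5.8% higher and 3.81% lower in eKD2.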

How the data were processed

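RNA-seq was analysed for 8 libraries, 2 per group, grouped by the sample titles. The deposited values are FPKM. Per the methods, the authors prepared poly-A libraries with the TruSeq v2 kit, which does not mark strand, aligned single-end reads to GRCh37 with STAR and computed FPKM with cufflinks and cuffnorm (the labels name hg19, STAR, Cuffnorm, DESeq2 and FastQC). The scaling between libraries is not given in the sources used here, and how reads shared by isotypes were split is not known.

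The authors tested counts with DESeq2. FPKM are not counts, so limma 3.58.1 in R 4.3.3 (lmFit, eBayes with a variance trend) was fitted here to log2(FPKM + 1), which understates changes of low genes, for 15372 genes (2 or more libraries at 1 FPKM or above), 2 against 2 libraries at a time. P-values are two-sided and Benjamini-Hochberg adjusted over all of them. The fit was also run on simulated data drawn with a variance trend, which cannot show whether the trend holds in these data. Changes are called at an adjusted p under 0.05. SD is over the 2 libraries of a group. Relative depth was read from the worth of 1 read in low values and includes any scaling by cuffnorm.

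The members, gene lists and tests were chosen with earlier results of these data known. Named genes are the 10 members, LOXHD1, up to 3 called genes with the largest change per list and comparison at a mean of at least 5 FPKM, and the 3 genes nearest in pattern to STMN1, TUBA1B and TUBB3. GENCODE version 44 on GRCh37, not the version the authors used, gave positions and coding sequences. Upstream sequences came from RefSeq on GRCh38.p14, where all 10 members matched. As alternatives, the pseudocount was set to 0.1, the filter dropped or raised to a mean of 5 FPKM, the columns rescaled by median of ratios or to equal totals, all 8 libraries fitted together, the replicate number added as a block, the variance trend dropped, and each library left out in turn.

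Same-numbered libraries were not paired, and they did not deviate together over all genes (r of duplicate differences -0.0369 in the hypoxia, 0.0373 in the eKD1 and 0.0114 in the eKD2 comparison). One of the leukocyte markers is not reported here.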

Additional observations from a re-analysis of the deposited data

Results flagged for a closer look

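Of the 10 genes, 4 had eKD1 libraries above and eKD2 libraries below both hypoxia controls. Only TUBB4B passed the direct test between the guides. Over all genes, 27.6% had eKD1 libraries above both controls and 26.4% had eKD2 libraries below them. The share of all genes with both was not computed, so the count of 4 cannot be set against it. TUBB4B was lower in eKD2 than in eKD1 by a tested difference (log2 difference -1.21, limma adjusted p = 0.0205), with eKD1 libraries above and eKD2 libraries below both hypoxia controls. For TUBA1A (-0.38, adjusted p = 0.080), TUBA1C (-0.67, adjusted p = 0.0529) and TUBB (-0.50, adjusted p = 0.0597), the eKD1 libraries also all lay above and the eKD2 libraries all below the controls, and the direct test of the difference missed the threshold. For TUBB the difference of eKD1 from the controls was 0.01 (limma adjusted p = 0.879), and -0.01 with median-of-ratios scaling. Groups of 2 libraries are too small to look for a single library apart from the others.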

How the results depend on the processing

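Over all alternatives no called change of the 10 genes reversed. The direction of some uncalled changes varied, namely TUBB, TUBB2A and TUBB3 in eKD1, TUBB2B in eKD2 and TUBB4B in hypoxia. Of the 9 genes called in hypoxia, 7 were called without a filter, without a variance trend or with a replicate block, and 8 with equal totals. For eKD1, with 0 genes called, no filter gave 1 and the shared fit 4. For eKD2, with 7 called, no filter gave 4, no variance trend 0 and equal totals 5. For eKD2 against eKD1, with 1 called, a pseudocount of 0.1, no filter and a mean of at least 5 FPKM each gave 2, the shared fit 6 and no variance trend 0. Leaving out any 1 library leaves 1 library in a group, which is too few to judge which genes are called. Same-numbered libraries were not treated as pairs, and the replicate block gave 7 genes in hypoxia and 0 in eKD1, eKD2 and eKD2 against eKD1. Among all genes the block gave 2570 calls in hypoxia and 0 in each of the others, and the shared fit gave 5824, 761, 2601 and 1391, against 4946, 10, 1477 and 62. Without a filter these were 3024, 206, 853 and 260, and without a variance trend 4310, 6, 28 and 5. With equal totals they were 5510, 13, 1908 and 52. Between the guides, a pseudocount of 0.1 gave 87 calls among all genes, and a mean of at least 5 FPKM gave 105 of 10808. Equal totals moved the median of all genes from 0.01 to -0.19 in hypoxia and from 0.05 to 0.14 in eKD2. The cause of these differences was not tested. Depth is known only relative to the deepest library, so low members such as TUBB2B carry the least certain values.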
